A study of Homo sapiens with 4 samples.

Results

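The insulin-like growth factor binding proteins were followed in MDA-MB-231, a mesenchymal breast cancer line of human origin, after treatment with MGH-CP1, a small molecule that blocks the palmitoylation of TEAD transcription factors. The 7 genes were chosen by symbol, IGFBP1 to IGFBP7, among 48162 genes in the table, and each was found once. RNA-seq was available for 2 libraries of cells given MGH-CP1 at 10 µM for 24 h and 2 libraries of cells given vehicle control, all from cells in DMEM with serum. The dose is that of the labels, and the study's methods write its unit as mM. Nothing states that the replicates were separate cultures, so p-values measure only the spread between these libraries, which may be technical. Levels are given in FPKM, fragments per kilobase of gene scaled to the size of the library, which allows comparison between genes of different length.

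Most members of the family are secreted proteins that bind IGF1 and IGF2 tightly, carry them in the circulation and around cells, and keep them from the IGF1 receptor. Proteases cut the binding proteins and so release the ligand, and several members also act on cells without IGF. IGFBP7 binds IGFs weakly and is often grouped apart from the others. In breast cancer cells, binding proteins are studied both as brakes on IGF signalling and as secreted factors of their own.

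The family moved in both directions after MGH-CP1. IGFBP7 and IGFBP6 rose by 1.79 and 1.70 times in mean FPKM, and IGFBP4, the most abundant member, by 1.27 times, although IGFBP4 was lower (log2 fold change -0.19) when the libraries were quantile normalized. IGFBP3 and IGFBP1 fell, to 0.736 and 0.839 of the vehicle level. IGFBP2 and IGFBP5 were barely detected, with at most 6 fragments in a library. The filter, a mean of 1 FPKM or more over the libraries, left 12080 genes for limma on log2(FPKM + 1). At a threshold of 0.05 on the adjusted p, 27.1% of them were called higher and 23.8% lower. Of the 7 members, 5 passed this filter, 3 of them called higher (IGFBP4, IGFBP6, IGFBP7) and 2 lower (IGFBP1, IGFBP3). Since 50.8% of all tested genes were called, a call in itself sets no member apart. The libraries of the conditions did not overlap for any of the 5 members tested, as was so for 77.2% of all tested genes. They did not overlap for IGFBP2 and IGFBP5 either, but these were under the filter and rest on at most 6 fragments in a library.

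**Figure D1:**
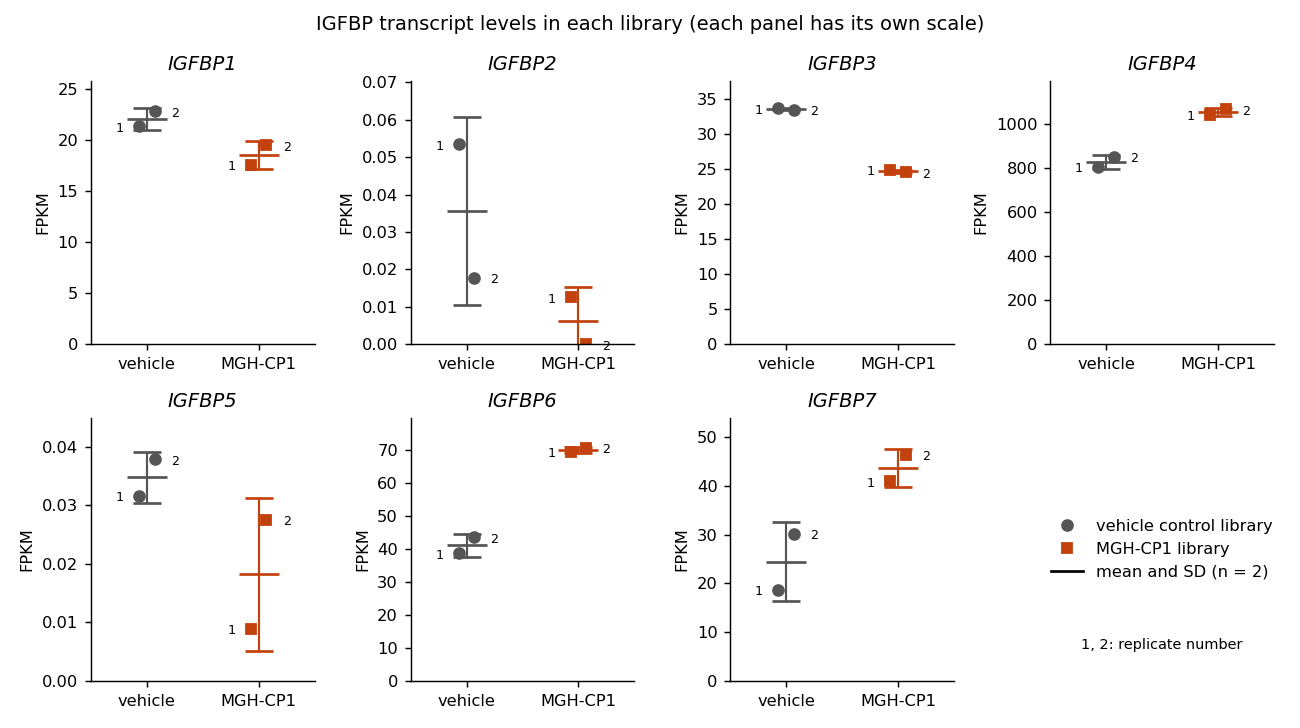
FPKM of the 7 IGFBP genes in each library (points, numbered by replicate), with the mean and SD of the 2 libraries per condition (bars), each panel starting at 0 on its own scale. IGFBP3 has close replicates in both conditions and IGFBP6 after MGH-CP1, the vehicle libraries of IGFBP7 lie far apart, IGFBP4 is higher after MGH-CP1 as deposited but lower (-0.19) when quantile normalized, and IGFBP2 and IGFBP5 rest on 0 to 6 fragments.

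The sequence upstream of the members is shown because MGH-CP1 acts on TEAD, which binds the M-CAT motif. Its core was searched as CATTCC, whose reverse complement reads GGAATG. RefSeq windows of 250 bases before a start site, in GRCh38.p14, were matched by symbol for 5 of the 7 members. These members have 7 windows, and the core occurred, on either strand, in 2 of the 7, those of IGFBP5 and IGFBP6, against 11.9% of 35116 windows of all genes. A match of these letters is a description and not a binding site, and the windows mark annotated starts, not starts measured in these cells. The windows of IGFBP6 (chr12:53097417-53097666, plus strand), IGFBP4 (chr17:40443200-40443449, plus strand), IGFBP3 (chr7:45921273-45921522, minus strand) and IGFBP5 (chr2:216695550-216695799, minus strand) follow, with the core in capitals.
IGFBP6: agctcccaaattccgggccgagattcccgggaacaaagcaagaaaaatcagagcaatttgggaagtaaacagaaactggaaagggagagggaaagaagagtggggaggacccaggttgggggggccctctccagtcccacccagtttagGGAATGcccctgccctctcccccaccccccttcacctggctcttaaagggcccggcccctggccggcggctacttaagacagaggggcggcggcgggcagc
IGFBP4: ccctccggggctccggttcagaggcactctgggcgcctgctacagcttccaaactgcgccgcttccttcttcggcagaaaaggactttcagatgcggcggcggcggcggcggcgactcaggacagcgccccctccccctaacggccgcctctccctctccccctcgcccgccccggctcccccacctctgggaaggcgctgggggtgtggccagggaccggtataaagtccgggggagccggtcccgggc
IGFBP3: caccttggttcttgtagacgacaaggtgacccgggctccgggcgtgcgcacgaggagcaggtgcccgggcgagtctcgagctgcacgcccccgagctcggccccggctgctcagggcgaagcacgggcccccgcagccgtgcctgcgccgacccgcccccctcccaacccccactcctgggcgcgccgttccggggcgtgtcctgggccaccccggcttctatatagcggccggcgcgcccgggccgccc
IGFBP5: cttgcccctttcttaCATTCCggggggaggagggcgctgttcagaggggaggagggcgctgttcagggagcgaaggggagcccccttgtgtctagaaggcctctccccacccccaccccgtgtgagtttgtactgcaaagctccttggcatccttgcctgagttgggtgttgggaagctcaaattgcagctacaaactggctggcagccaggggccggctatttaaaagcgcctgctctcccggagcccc
The core ended 95 bases before the annotated start of IGFBP6, which rose, and 229 bases before that of IGFBP5, which was barely detected. IGFBP4 and IGFBP3, which moved in opposite directions as deposited, held none in these windows, and neither did the 3 windows of IGFBP2. With quantile normalization IGFBP4 and IGFBP3 were both lower, at log2 fold changes of -0.19 and -0.41.

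IGFBP4 (ENSG00000141753, chromosome 17 from 38599702 to 38613983, plus strand, hg19) encodes a binding protein that blocks IGF action until it is cut by the protease PAPPA. Its level was 804 and 850 FPKM with vehicle and 1041 and 1066 FPKM after MGH-CP1. It ranked 21 among all tested genes by mean FPKM, and both MGH-CP1 libraries lay above both vehicle libraries. The mean rose from 827 ± 32.5 to 1053 ± 17.4 FPKM (SD, n = 2 each), with a log2 fold change of 0.35 (SE, standard error, 0.05, 95% interval 0.23 to 0.47, adjusted p = 8.88e-04 from limma). Each library held 41208 to 47697 fragments of the gene, so counting error was small. The direction depended on the scaling at the top of the distribution. IGFBP4 ranked 18 and 20 by FPKM with vehicle and 23 and 22 with MGH-CP1, and quantile normalization, which gives equal ranks equal values, turned the log2 fold change to -0.19 (adjusted p = 0.0121 from limma). Under median-ratio scaling it was 0.34.

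IGFBP6 (ENSG00000167779, chromosome 12 from 53491220 to 53496129, plus strand) prefers IGF2 over IGF1. Its level was 38.7 and 43.6 FPKM with vehicle and 69.5 and 70.7 FPKM after MGH-CP1. The conditions were well apart, and the MGH-CP1 libraries were nearly equal. The mean rose from 41.1 ± 3.45 to 70.1 ± 0.830 FPKM (SD, n = 2 each), a log2 fold change of 0.76 (SE 0.06, 95% interval 0.61 to 0.90, adjusted p = 6.92e-05 from limma). Of all genes tested, 4.28% rose more. When single libraries were left out, its log2 fold change lay between 0.67 and 0.84, and the gene was called each time. The listed genes whose deviations from their own mean over the 4 libraries lay closest to those of IGFBP6 were MROH6, ESPN and PAN2, at distances of 0.0158, 0.0167 and 0.0316 on the log2 scale. With 4 libraries such likeness describes the profile only.

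IGFBP7 (ENSG00000163453, chromosome 4 from 57896939 to 57976551, minus strand) is a matrix-associated protein of low IGF affinity. Its level was 18.7 and 30.1 FPKM in the vehicle libraries and 40.9 and 46.4 FPKM after MGH-CP1. All MGH-CP1 values were above all vehicle values, but the vehicle libraries were far apart. From 679 and 1097 fragments, the exact binomial 95% intervals were 17.3 to 20.2 FPKM in vehicle replicate 1 and 28.4 to 32.0 FPKM in vehicle replicate 2, which cover counting error only and do not overlap. The vehicle libraries differed by 0.66 on the log2 scale, and 66 of the 12080 genes (0.546%) differed more.

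The mean of IGFBP7 rose from 24.4 ± 8.09 to 43.6 ± 3.85 FPKM (SD, n = 2 each). The log2 fold change was 0.85, the largest of the family, with the widest error (SE 0.18, 95% interval 0.44 to 1.26, adjusted p = 0.00508 from limma). Without vehicle replicate 1 the log2 fold change was 0.52, and without vehicle replicate 2 it was 1.18, both still called. When all genes above 0 in any library were tested, the adjusted p from limma was 0.114. Closest in profile over the 4 libraries were NDUFA1 (distance 0.121), TLCD2 (0.123) and PYCARD (0.175), chosen for that likeness alone. The log2(FPKM + 1) scale of these distances understates the change of low genes such as TLCD2 and PYCARD. TLCD2 read 0.555 and 1.23 FPKM with vehicle and 2.13 and 2.76 FPKM after MGH-CP1. PYCARD read 1.55 and 2.41 FPKM, then 4.01 and 4.80 FPKM. NDUFA1, a subunit of respiratory complex I, read 20.2 and 35.8 FPKM with vehicle and 48.9 and 51.7 FPKM after MGH-CP1.

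The span of IGFBP7 overlaps POLR2B, on the opposite strand, over 396 bases. The library protocol names no step that marks the strand, so reads in that stretch could be counted for either gene. POLR2B stood at 252 and 240 CPM (fragments scaled to library size) with vehicle and at 240 and 223 CPM after MGH-CP1, and the part of its reads in the IGFBP7 level was not tested. The 3 other genes listed over IGFBP7 held at most 6 fragments in a library.

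IGFBP3 (ENSG00000146674, chromosome 7 from 45951949 to 45961473, minus strand) is the main IGF carrier in serum. It read 33.6 and 33.4 FPKM with vehicle and 24.8 and 24.5 FPKM after MGH-CP1. Replicates differed by far less than the conditions. The mean went from 33.5 ± 0.135 to 24.7 ± 0.204 FPKM (SD, n = 2 each), a log2 fold change of -0.43 (SE 0.05, 95% interval -0.54 to -0.31, adjusted p = 3.21e-04 from limma). Of all genes tested, 8.60% fell more. IGFBP3 was called lower under every alternative that was run, with log2 fold changes between -0.44 and -0.41.

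IGFBP1 (ENSG00000146678, chromosome 7 from 45927956 to 45933267, plus strand) is known as a product of liver and decidua that insulin represses. It read 21.4 and 22.9 FPKM with vehicle and 17.6 and 19.5 FPKM after MGH-CP1. The highest MGH-CP1 library was below the lowest vehicle library, by less than the distance between the MGH-CP1 libraries. The mean went from 22.1 ± 1.06 to 18.6 ± 1.34 FPKM (SD, n = 2 each), a log2 fold change of -0.24 (SE 0.07, 95% interval -0.40 to -0.08, adjusted p = 0.0188 from limma). The call was lost without vehicle replicate 2 (log2 fold change -0.19, adjusted p = 0.0745 from limma) and without MGH-CP1 replicate 1 (-0.17, adjusted p = 0.121). It was also lost when all genes above 0 were tested (adjusted p = 0.104 from limma).

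The liver markers ALB, APOA1 and TTR, all under the filter, had a summed level of 0.0960 and 0.160 FPKM with vehicle and 0.391 and 3.04 FPKM after MGH-CP1. The mean of each of the 3 was higher after MGH-CP1, but on few fragments. A library held at most 102 fragments of ALB, 9 of APOA1 and 1 of TTR. ALB was listed at 0 in both vehicle libraries and at 0.0737 and 2.56 FPKM in MGH-CP1 replicates 1 and 2. The part of liver transcripts in the level of IGFBP1, which was called lower, was not tested.

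**Figure D2:**
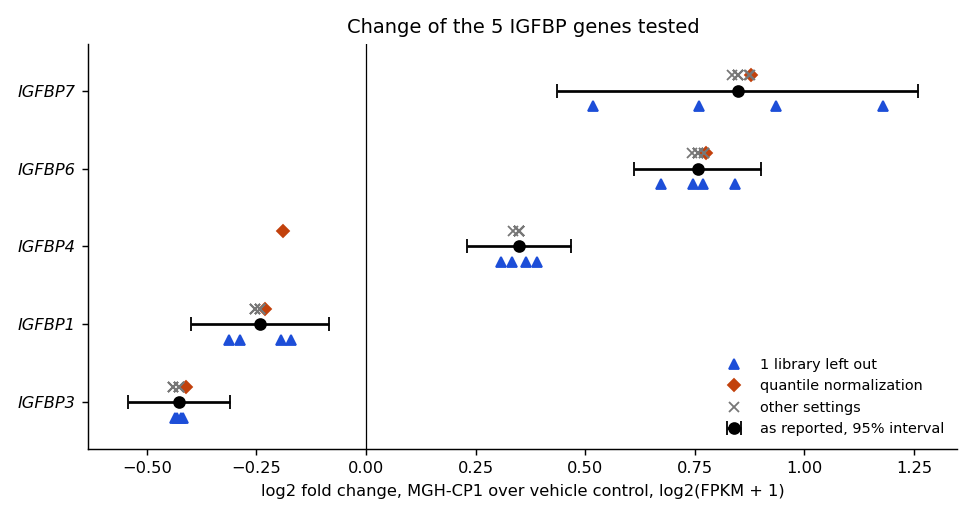
Log2 fold change (x axis, log2(FPKM + 1) scale) of the 5 IGFBP genes tested, with the 95% interval from limma (black), the values with 1 library left out (triangles), with quantile normalization (diamonds) and under the other settings (crosses). IGFBP4 alone crosses 0, at -0.19 with quantile normalization, and IGFBP7 spreads from 0.52 to 1.18 when a library is left out.

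IGFBP2 (ENSG00000115457) and IGFBP5 (ENSG00000115461) were at the limit of detection. IGFBP2, a binding protein of fetal tissues and many tumours, had 6 and 2 fragments with vehicle and 1 and 0 after MGH-CP1, or 0.0534, 0.0178, 0.0126 and 0 FPKM. In MGH-CP1 replicate 2, 3 fragments, taken as the limit for a count of 0, would be 0.0387 FPKM, and the exact 95% interval of the 0 reaches 0.0475 FPKM. IGFBP5, which is bound to matrix and is regulated in mammary involution, had 5 and 6 fragments with vehicle and 1 and 3 after MGH-CP1, or 0.0316, 0.0378, 0.00894 and 0.0275 FPKM. Exact binomial intervals of the conditions overlapped for both genes, so that no change was detectable at this depth.

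The members form 2 pairs of neighbours in the genome. IGFBP1 and IGFBP3 lie 18681 bases apart on chromosome 7, IGFBP2 and IGFBP5 lie 7668 bases apart on chromosome 2, the genes of each pair point towards each other, and no listed gene lies between them. Within the first pair both genes were called lower, and within the second both were barely detected. The ratio of IGFBP3 to IGFBP1 was 1.57 and 1.46 with vehicle and 1.41 and 1.26 after MGH-CP1 (p = 0.33, two-sided exact permutation test, which with 2 libraries a side can give no smaller p). The 3 members called higher, IGFBP4, IGFBP6 and IGFBP7, each lie on a chromosome of their own.

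By level, the order with vehicle was IGFBP4, IGFBP6, IGFBP3, IGFBP7 and IGFBP1, then IGFBP2 and IGFBP5. The values of IGFBP7 (18.7 and 30.1 FPKM) enclosed those of IGFBP1 (21.4 and 22.9 FPKM), so these neighbours did not differ beyond their spread. After MGH-CP1 the order was IGFBP4, IGFBP6, IGFBP7, IGFBP3 and IGFBP1, with no overlap between these 5. IGFBP7 had thus passed IGFBP3, its ratio to IGFBP3 being 0.556 and 0.901 with vehicle and 1.65 and 1.89 after MGH-CP1. The ratio of IGFBP6 to IGFBP3 went from 1.15 and 1.30 to 2.80 and 2.88. Such ratios within a library do not depend on a scaling factor of the library.

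The 7 members summed to 916 and 980 FPKM with vehicle and to 1194 and 1227 FPKM after MGH-CP1, a difference of 262 FPKM (p = 0.33, two-sided exact permutation test). IGFBP4 held 87.7% and 86.7% of this sum with vehicle and 87.2% and 86.9% after MGH-CP1, shares that overlapped. The sum therefore follows IGFBP4, and with quantile normalization the difference was -86.1 FPKM over the 5 members tested. Without IGFBP4 the sum was 112 and 130 FPKM with vehicle and 153 and 161 FPKM after MGH-CP1. In that remainder the share of IGFBP6 went from 33.9% to 44.7% and that of IGFBP7 from 19.9% to 27.8%, while that of IGFBP3 went from 27.8% to 15.7% and that of IGFBP1 from 18.3% to 11.8%, as means of 2 libraries.

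**Figure D3:**
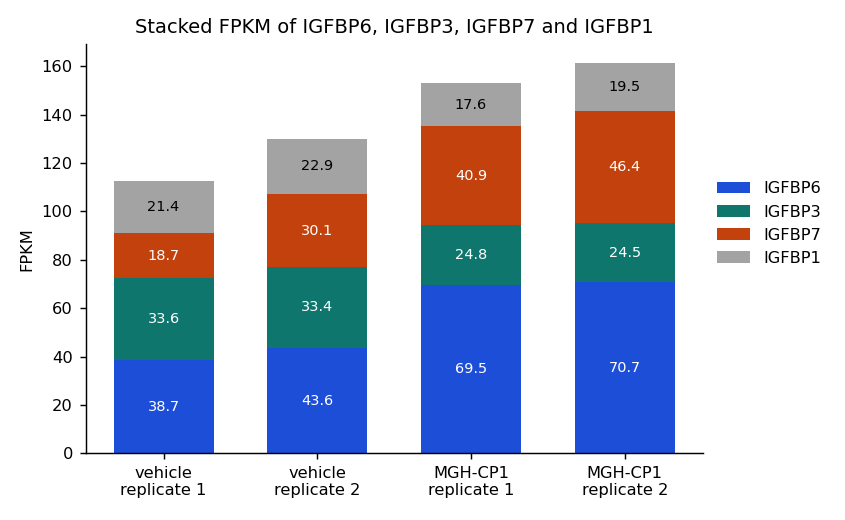
Stacked FPKM (y axis) of IGFBP6, IGFBP3, IGFBP7 and IGFBP1 in each of the 4 libraries, with the value of each gene printed in its bar segment. The segments of IGFBP6 and IGFBP7 are taller, and those of IGFBP3 and IGFBP1 shorter, in either MGH-CP1 bar than in either vehicle bar.

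The other genes of the IGF axis were taken from 6 lists by role, 43 genes in all, of which 25 passed the filter, with 8 called higher and 7 lower. The called genes were 15 of 25, beside 50.8% of all genes tested. The median log2 fold change of the 25 was 0.05, against 0.01 over all genes tested. The ligands were nearly absent: IGF2 had at most 7 fragments in a library, IGFALS, the acid-labile partner of IGFBP3 in serum, at most 3, IGF1 at most 1, and INS was listed at 0 in every library. The receptors were expressed and none was called. IGF1R, the signalling receptor of both IGFs, read 5.46 and 5.42 FPKM with vehicle and 4.94 and 5.74 FPKM after MGH-CP1, with overlapping conditions and a 95% interval of the log2 fold change from -0.23 to 0.18. The interval was -0.12 to 0.27 for INSR, the insulin receptor, and -0.03 to 0.20 for IGF2R, which clears IGF2 from the cell surface, and INSRR was listed at 0.

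Among 6 adaptors tested, 2 were called higher and none lower, beside 27.1% and 23.8% of all genes tested. Their median log2 fold change was 0.08, against 0.01 over all genes tested. IRS1, the docking protein of the IGF1 and insulin receptors, rose by 0.27 on the log2 scale (SE 0.06, adjusted p = 0.00444 from limma) and SHC1 by 0.23 (SE 0.05, adjusted p = 0.00739), while IRS2, likewise a docking protein, had a log2 fold change of -0.04 (95% interval -0.24 to 0.15). SHC1 was not called without MGH-CP1 replicate 2 (adjusted p = 0.0526 from limma).

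Of 13 proteases of binding proteins and their inhibitors, 8 were tested, 4 called higher and 2 lower (27.1% and 23.8% of all genes), with a median log2 fold change of 0.28. CTSD, the lysosomal protease cathepsin D, which can cut IGFBPs, read 282 and 315 FPKM with vehicle and 606 and 566 FPKM after MGH-CP1 (log2 fold change 0.97, SE 0.06, adjusted p = 3.09e-05 from limma). PLAT, the tissue plasminogen activator, rose by 0.73 (SE 0.05), and HTRA3, a secreted serine protease that itself carries an IGFBP domain, by 0.49 (SE 0.08). STC1, an inhibitor and not a protease, was also called higher (log2 fold change 0.45, SE 0.09, adjusted p = 0.00329 from limma). PLAU, the urokinase plasminogen activator, and ADAM9, a membrane metalloprotease, were the genes called lower, with log2 fold changes of -0.49 (SE 0.07) and -0.19 (SE 0.05). ADAM9 was not called without vehicle replicate 1 or without MGH-CP1 replicate 1 (adjusted p of 0.0580 and 0.0858 from limma). PAPPA, the protease of IGFBP4, stayed under the filter in all libraries, at 0.183 and 0.157 FPKM with vehicle and 0.152 and 0.156 FPKM after MGH-CP1.

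Proteins that share the IGFBP domain but belong to other families moved in both directions. Of 8 tested, 4 were called lower and 2 higher (23.8% and 27.1% of all genes), and 2 were not called. The median log2 fold change was -0.32, against 0.01 over all genes tested. IGFBPL1 read 8.73 and 7.93 FPKM with vehicle and 3.71 and 4.79 FPKM after MGH-CP1, with -0.84 as its log2 fold change (SE 0.11, adjusted p = 4.95e-04 from limma). The matricellular CCN proteins CYR61 and CTGF, established TEAD target genes, fell by 0.75 and 0.66 on the log2 scale, and NOV, of the same family, had a log2 fold change of 0.03 (95% interval -0.19 to 0.25). HTRA3 and KAZALD1 were the members called higher, and HTRA1 and HTRA3 stand in both this list and that of the proteases. The IGF2 mRNA-binding proteins, which share part of the name only, were split, with IGF2BP2 lower by a log2 fold change of -0.46 (SE 0.07, adjusted p = 0.00132 from limma) and IGF2BP3 higher by 0.21 (SE 0.07, adjusted p = 0.0310). IGF2BP3 was not called when any 1 of the 4 libraries was left out (adjusted p from 0.0548 to 0.131 from limma).

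**Figure D4:**
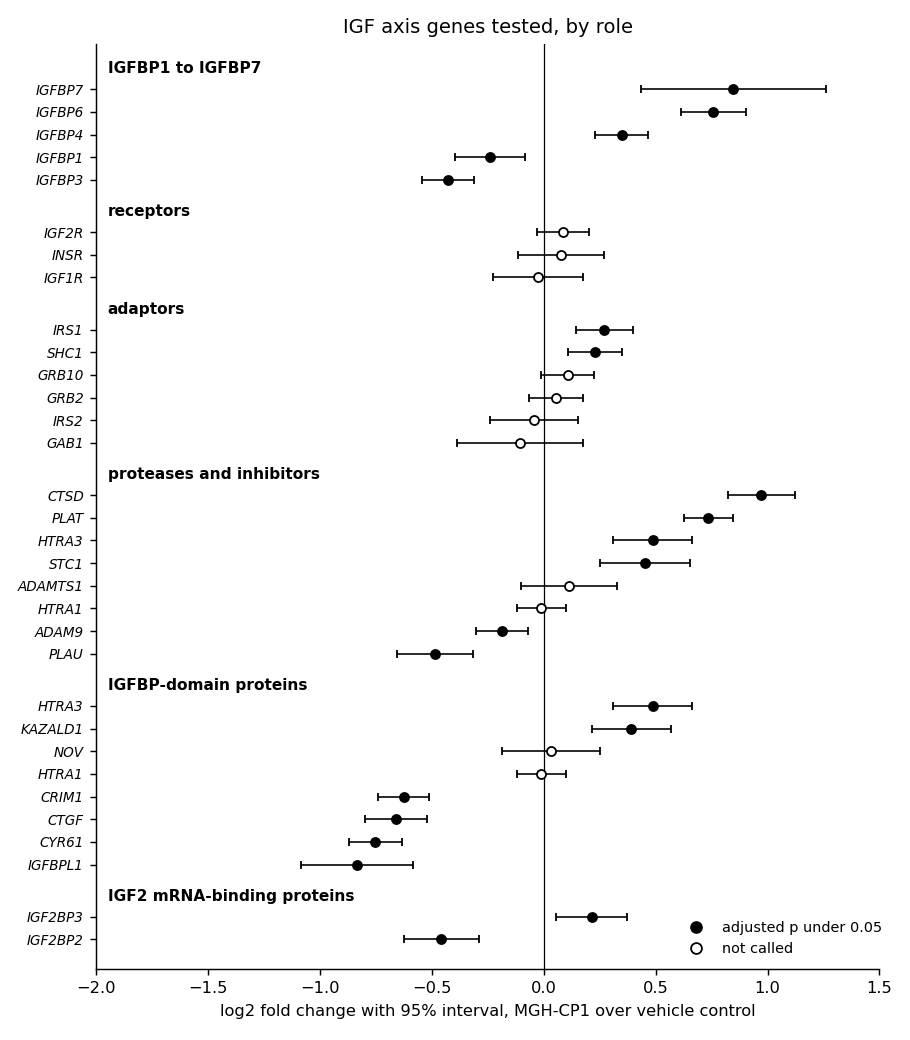
Log2 fold change (x axis) with its 95% interval from limma for the tested genes of the IGF axis, grouped by role, with filled points for an adjusted p under 0.05. The 3 receptors lie around 0, CTSD has the highest value (0.97) and IGFBPL1 the lowest (-0.84), and IGFBP4, at 0.35 here, is at -0.19 with quantile normalization.

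The libraries held 25455533 and 25508824 fragments on genes with vehicle and 17997221 and 17577930 after MGH-CP1, so that IGFBP4 had fewer fragments but a higher FPKM after treatment. Transcripts of the mitochondrial genome took 0.418% to 0.447% of fragments with vehicle and 1.53% to 1.57% after MGH-CP1, and their part in the values above was not tested. Of the markers of the line, VIM, CD44, AXL, CAV1 and PLAU had at least 53.3 FPKM in every library, whereas SPARC had at most 0.117. Of the 5, AXL, CAV1 and PLAU were called lower (log2 fold changes -0.76, -0.49 and -0.49) and VIM and CD44 were not called. Among all genes tested, 23.8% were called lower and 27.1% higher. The 6 markers summed to 1222 and 1231 FPKM with vehicle and to 955 and 1005 FPKM after MGH-CP1, and the part of this in the values above was not tested. ESR1 and PGR were at or near 0, and ERBB2 lay between 24.7 and 28.4 FPKM. Of 6 epithelial genes, 5 had at least 1 FPKM in every library, and CDH1 had at most 0.638 FPKM and was under the filter. KRT8 read 332 and 341 FPKM with vehicle and 291 and 303 FPKM after MGH-CP1. That was above VIM in every library (281 and 267 FPKM with vehicle, 259 and 262 FPKM after MGH-CP1). CLDN4 was called higher (26.1 and 27.2 FPKM with vehicle, 40.9 and 38.8 FPKM after MGH-CP1, log2 fold change 0.56). KRT18 and KRT8 were called lower (-0.35 and -0.18), and EPCAM and CLDN3 were not called. So 1 of the 5 epithelial genes tested was called higher and 2 lower, beside 27.1% and 23.8% of all genes. KRT8 lost its call without MGH-CP1 replicate 1 (adjusted p = 0.108 from limma). Of the markers of other cells, the fibroblast genes COL1A1 and PDGFRB passed the filter and were not called. COL1A1 read 1.31 and 1.39 FPKM with vehicle and 1.83 and 1.70 FPKM after MGH-CP1. PDGFRB read 1.40 and 1.24 FPKM, then 1.58 and 1.67 FPKM. The fibroblast genes DCN and LUM were under the filter, and neither had a higher mean after MGH-CP1. DCN read 0.0269 and 0.0134 FPKM with vehicle and was listed at 0 in both MGH-CP1 libraries. LUM read 0.287 and 0.182 FPKM with vehicle and 0.185 and 0.265 FPKM after MGH-CP1, with overlapping conditions. The leukocyte gene PTPRC had at most 3 fragments in a library, and the T cell gene CD3E was listed at 0 in every library. In bulk RNA, fewer cells expressing a gene and less RNA per cell cannot be told apart.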

How the data were processed

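RNA-seq was deposited for 4 libraries, 2 of MGH-CP1 and 2 of vehicle control, grouped by their titles. The authors deposited FPKM, computed from a fixed length per gene. The submitters' processing notes list CASAVA 1.8, STAR and hg19. The counting tool is not given in the sources used here. The coordinates are not those of GRCh38, since 0.547% of 45342 gene identifiers had the same coordinates in GENCODE release 29. The deposited coordinates and gene lengths in bases, annotation and not measurements, served for positions and for recovering fragments. FPKM times length was a whole multiple of a single step, within 0.05 of a fragment, for 100% of values above 0, and the fragments so recovered sum to the depths given.

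Genes averaging 1 FPKM or more over the 4 libraries were compared on log2(FPKM + 1), a scale that understates the change of low genes, with limma 3.58.1 in R 4.3.3 (lmFit, eBayes with a trend, two-sided, Benjamini-Hochberg over all genes, threshold 0.05). The study used a per-gene test. Limma was chosen because it shares variance between genes. The fit was also run on simulated data in which far fewer genes changed than were called here, so that run does not measure its error in these data. Exact permutation tests of single values (scipy 1.17.1) cannot go below 0.33. Binomial intervals are exact, at 95%. Members, lists and tests were chosen with earlier results of these data known. The lists were written from general knowledge. Named were all members, ligands and receptors, in each other list the 3 called genes of largest change and any gene not called that moved by at least 0.5, and the 3 genes nearest in profile to each of the 2 members of largest change. Other genes were named after their values were seen. Alternatives were a pseudocount of 0.1, no filter, a filter at 5 FPKM, quantile normalization, median-ratio scaling, a replicate block, no trend, limma voom on the recovered fragments and leaving out each library, where the lone library is taken to vary like the other condition. Quantile normalization of the summed level was added after the data were seen. Promoter windows are from RefSeq (GRCh38.p14).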

Additional observations from a re-analysis of the deposited data

How the results depend on the processing

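IGFBP3 and IGFBP6 kept their direction and call under all 12 alternatives. Quantile normalization reversed IGFBP4 (log2 fold change -0.19) and the summed level (-86.1 FPKM in place of 262 FPKM, an alternative added after the data were seen). With no filter on low values IGFBP1 (-0.24, adjusted p = 0.104 from limma) and IGFBP7 (0.85, adjusted p = 0.114) were no longer called, 1 member was called lower, and of all genes 1844 were called lower in place of 2869, with 24878 genes tested. With each library left out in turn, 1 to 2 members were called lower, and the log2 fold change of IGFBP1 ranged from -0.31 to -0.17. The numbers of other IGF axis genes called stayed within 6 to 8 higher and 6 to 7 lower.

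Whether the replicate numbers pair the libraries is not known. The replicate differences of both conditions had a correlation across genes of 0.0777, which cannot tell whether the libraries were made in pairs. With the replicate block 3 members were called higher and 2 lower, and no member's call changed. Of all genes, 3466 were called higher and 3052 lower, in place of 3273 and 2869. The adjusted p of IGFBP7 from limma was 3.25e-05 with the block and 0.00508 without it. Depth limits IGFBP2, IGFBP5 and the ligands, where 3 fragments or fewer stood behind several values.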
